A study of Mus musculus with 2 samples.

Results

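The megabase bins in which Zfp217 peaks lay closest together are described here, as mapped by ChIP-seq (sequencing of the DNA that an antibody pulls down with its protein) in a mouse embryonic stem cell line. Chromosomes 1 to 19 were divided into fixed 1 Mb bins, each peak was placed by its midpoint, and every bin with 30 or more peaks was called peak-dense. This gave 82 peak-dense bins of 2422 (3.39%), which held 3449 of the 18041 peaks on these chromosomes and of the 18737 peaks in the whole list. These bins were chosen by their number of peaks, the measured value itself, so their counts are a description and carry no test.

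The cells were CCE, a mouse embryonic stem cell line grown feeder-free on gelatin in serum and leukemia inhibitory factor (LIF), a cytokine that keeps such cells undifferentiated, and they received no treatment. The study holds 1 library from an immunoprecipitation with an antibody to Zfp217 and 1 input library, both from CCE, and the labels name no genetic change in either. The authors deposited 1 list of peaks with positions on the mouse genome build mm9 but no measure of signal. Read depth is thus unknown, the input could not be compared with any peak, and the spread between replicates could not be measured.

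Zfp217 is a zinc finger protein that binds DNA and is found in complexes with the corepressors CoREST and CtBP, which carry enzymes that remove acetyl and methyl marks from histones. In embryonic stem cells it is known for its link to pluripotency genes and to N6-methyladenosine (m6A), a methyl mark on messenger RNA, and the series addresses that role. Mouse chromosomes alternate between stretches rich and poor in genes over megabases, and factors bound near gene starts often follow that pattern. No annotation of mm9 was used here, so the bins are named by position, and neither genes nor sequences could be assigned to them.

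Peak-dense bins were few but held many peaks. They made up 3.39% of the bins and held 19.1% of the peaks, 42.1 peaks per Mb on average. For comparison, 1591 bins with 1 to 10 peaks held 6757 peaks, or 4.25 per Mb, and 460 bins with 11 to 29 peaks held 7835, or 17.03 per Mb. Another 289 bins held none, and the median over all bins was 4 peaks. Of the peak-dense bins, 44 held 30 to 39 peaks, 25 held 40 to 49, 6 held 50 to 59 and 7 held 60 or more. The threshold did not fall in a gap of the distribution, as the plot of bins by their number of peaks shows. The 6 bins with exactly 30 peaks held a median of 24 merged regions and had median peak widths from 274.5 to 348.5 bp, while the 8 bins with 29 peaks also held a median of 24 merged regions and had median widths from 289 to 384 bp. Those with 30 lay on chromosomes 2 (152 to 153 Mb), 4 (155 to 156 Mb), 5 (138 to 139 Mb), 11 (117 to 118 Mb), 17 (47 to 48 Mb) and 19 (46 to 47 Mb). The bins with 29 lay on chromosomes 4 (151 to 152 Mb), 5 (114 to 115 and 136 to 137 Mb), 6 (83 to 84 Mb), 7 (25 to 26 Mb), 8 (108 to 109 Mb), 17 (29 to 30 Mb) and 18 (36 to 37 Mb).

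**Figure D1:**
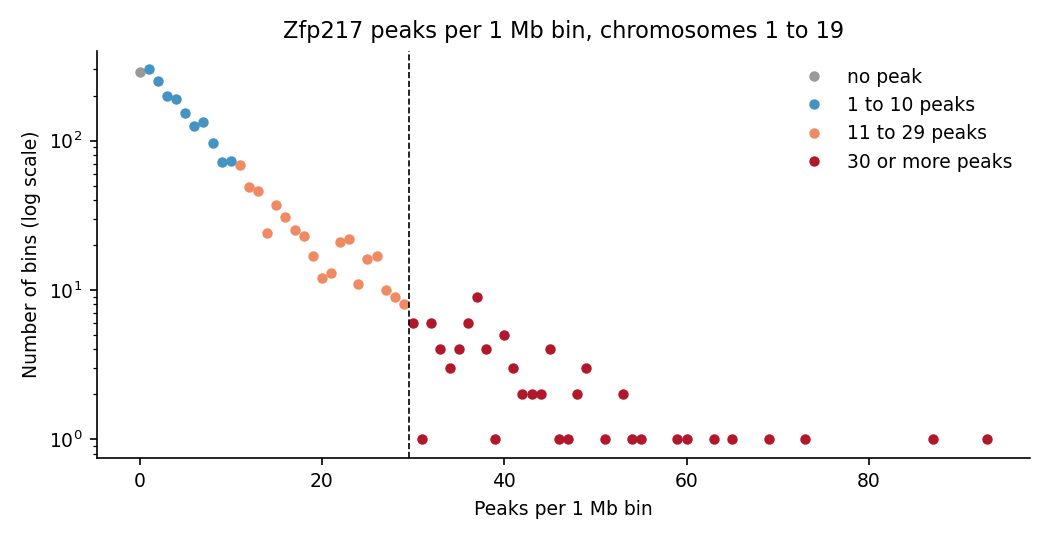
Number of 1 Mb bins of chromosomes 1 to 19 (log scale) by the number of peaks each held; each point is 1 count of peaks, coloured by class, and the dashed line marks the threshold of 30. The number of bins falls without a break through the threshold, and single bins reach up to 93 peaks.

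The fullest bin lay on chromosome 7 from 52 to 53 Mb and held 93 peaks. Its exact Poisson interval was 75.1 to 114 peaks (95%, counting error only, peaks taken as independent). The next bin, chromosome 10 from 80 to 81 Mb, held 87 peaks (69.7 to 107). The following bins were chromosome 8 from 73 to 74 Mb with 73 peaks, chromosome 10 from 79 to 80 Mb with 69, chromosome 3 from 96 to 97 Mb with 65 and chromosome 11 from 69 to 70 Mb with 63. Chromosome 19 held 60 peaks from 5 to 6 Mb, and chromosome 17 held 59 from 56 to 57 Mb. Chromosome 7 from 29 to 30 Mb with 55 peaks and chromosome 11 from 97 to 98 Mb with 54 completed the first 10. These 10 bins together held 678 peaks.

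To see how far the counts rest on peaks that nearly touch, peaks with gaps of 1000 bp or less were merged and the bins counted again. The 10 fullest bins then held 506 regions in place of 678 peaks. Chromosome 10 from 80 to 81 Mb had the most, with 66 regions, ahead of chromosome 7 from 52 to 53 Mb with 64, so that the first and the second changed places. Chromosome 10 from 79 to 80 Mb held 55 regions and chromosome 8 from 73 to 74 Mb held 50. Chromosomes 11 (69 to 70 Mb) and 17 (56 to 57 Mb) held 49 each, chromosome 3 (96 to 97 Mb) 48 and chromosome 19 (5 to 6 Mb) 47. The remaining bins of the 10 had 38 regions on chromosome 7 (29 to 30 Mb) and 40 on chromosome 11 (97 to 98 Mb). Over all 82 bins, the numbers of peaks and of regions went together (Pearson's r 0.89, Spearman's rho 0.87, across bins of 1 library, as a description).

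After merging, 53 of the 82 bins still held 30 or more regions (2.19% of all 2422 bins), and 28 held 11 to 29. A single bin dropped among the sparse ones. Located at the start of chromosome 9, from 3 to 4 Mb, it went from 40 peaks to 5 regions and lost 87.5% of its peaks, the largest share of any peak-dense bin. The smallest share, 4.44%, was lost by the bin on chromosome 15 from 76 to 77 Mb, which went from 45 peaks to 43 regions. The middle 50% of the bins lost between 14.0% and 23.6% of their peaks.

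Peak-dense bins were unevenly spread over the chromosomes. Chromosome 11 held 13 of them, or 10.9% of its bins, and 35.9% of its peaks lay in them. Chromosome 7 held 10, chromosome 17 held 8, and chromosomes 4, 8 and 9 held 6 each. Chromosomes 15 and 19 had 5 each, chromosomes 2, 3, 5 and 10 had 4, chromosome 13 had 3, chromosome 6 had 2, and chromosomes 14 and 16 had 1. None was found on chromosomes 1, 12 and 18, whose fullest bins held 25, 26 and 29 peaks. By share of bins, chromosome 17 (8.60%) and chromosome 19 (8.47%) came next after chromosome 11, followed by chromosome 7 (6.67%). These 4 chromosomes carried 36 of the 82 bins (43.9%) with 17.4% of all bins.

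**Figure D2:**
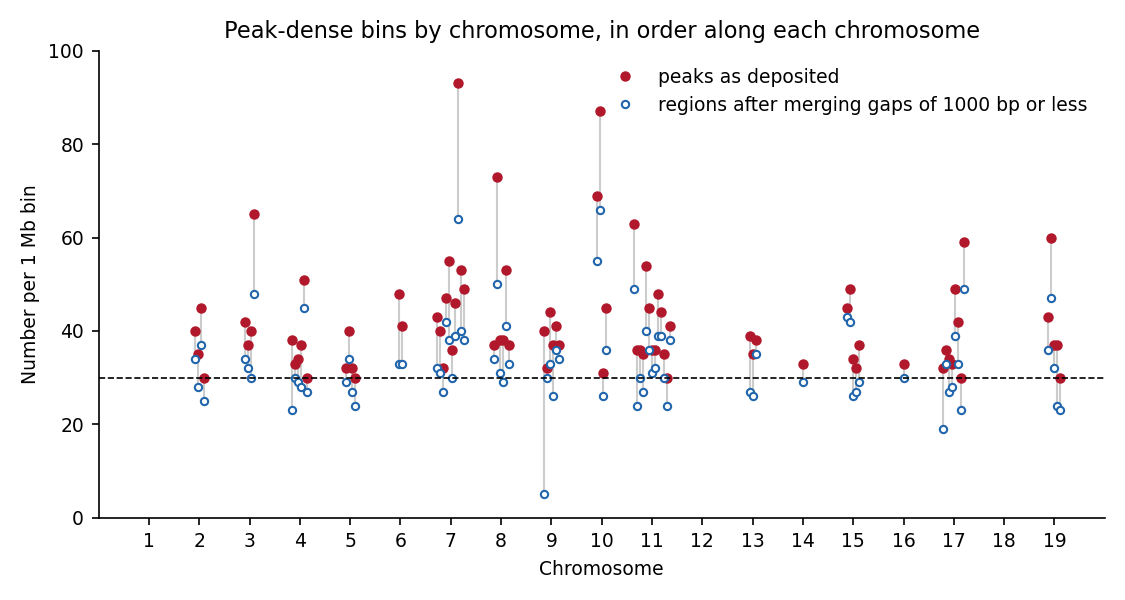
Number per bin in each of the 82 peak-dense bins, in order along each chromosome; filled points are peaks as deposited, open points are regions after merging gaps of 1000 bp or less, and the dashed line marks 30. Chromosomes 7 and 11 carry 10 and 13 bins, chromosomes 1, 12 and 18 none, and the bin at the start of chromosome 9 falls from 40 peaks to 5 regions.

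The 4 chromosomes with the highest share of peak-dense bins also carry the most protein-coding genes per Mb, but others departed from this order. Chromosomes 7, 11, 19 and 17 carry 13.3, 13.2, 11.5 and 11.1 protein-coding genes per Mb, and chromosomes 12, 18 and 1, which had no such bin, carry 5.62, 5.62 and 6.11. Genes were counted per chromosome from a RefSeq table of GRCm38.p6. Across the 19 autosomes the share of peak-dense bins and the number of genes per Mb had a Pearson's r of 0.88 and a Spearman's rho of 0.85. Without chromosomes 7 and 11, r was 0.86 and rho was 0.81 over 17 chromosomes. All points share 1 library and 1 peak list, and no p is given. Outside the peak-dense bins, the density ran from 4.57 peaks per Mb on chromosome 3 to 9.07 on chromosome 11. Chromosomes 17, 19 and 7 held 7.49, 7.30 and 6.74 there, and chromosomes 4, 5 and 2, with fewer genes per Mb, held 7.34, 7.29 and 7.01. Chromosomes 3 and 13 carry 6.18 and 6.89 genes per Mb and had 4 and 3 peak-dense bins, or 2.55% and 2.54% of their bins. Chromosome 2, with 9.81 genes per Mb, had 2.23%. Chromosomes 15 and 8, with 7.51 and 7.94 genes per Mb, had 4.95% and 4.65%. Whether the number of genes accounts for the spread of peak-dense bins was not tested.

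By chromosome, the 82 peak-dense bins were as follows, with their first and last Mb and their number of peaks. On chromosome 2 they lay at 25 to 26 Mb (40 peaks), 30 to 31 (35), 32 to 33 (45) and 152 to 153 (30). On chromosome 3 they were at 88 to 89 (42), 89 to 90 (37), 95 to 96 (40) and 96 to 97 Mb (65). Those of chromosome 4 were found at 88 to 89 (38), 116 to 117 (33), 129 to 130 (34), 132 to 133 (37), 133 to 134 (51) and 155 to 156 Mb (30). Thus the bins of chromosome 3 formed pairs, and 5 of the 6 on chromosome 4 lay beyond 116 Mb.

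Chromosome 5 had them at 31 to 32 (32), 115 to 116 (40), 135 to 136 (32) and 138 to 139 Mb (30), and chromosome 6 at 47 to 48 (48) and 124 to 125 Mb (41). Chromosome 7 had them at 19 to 20 (43), 20 to 21 (40), 26 to 27 (32), 28 to 29 (47), 29 to 30 (55), 30 to 31 (36), 31 to 32 (46), 52 to 53 (93), 134 to 135 (53) and 148 to 149 Mb (49). Chromosome 8 had them at 72 to 73 (37), 73 to 74 (73), 74 to 75 (38), 86 to 87 (38), 87 to 88 (53) and 126 to 127 Mb (37). Of the 10 bins on chromosome 7, 7 lay between 19 and 32 Mb.

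On chromosome 9 the bins lay at 3 to 4 (40), 20 to 21 (32), 21 to 22 (44), 44 to 45 (37), 107 to 108 (41) and 108 to 109 Mb (37). On chromosome 10 they lay at 79 to 80 (69), 80 to 81 (87), 126 to 127 (31) and 127 to 128 Mb (45). The 13 bins of chromosome 11 were at 69 to 70 (63), 70 to 71 (36), 77 to 78 (36), 87 to 88 (35), 97 to 98 (54), 98 to 99 (45), 100 to 101 (36), 101 to 102 (36), 102 to 103 (48), 115 to 116 (44), 116 to 117 (35), 117 to 118 (30) and 120 to 121 Mb (41). Every one of them lay beyond 69 Mb of this chromosome.

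Chromosome 13 had bins at 23 to 24 (39), 55 to 56 (35) and 66 to 67 Mb (38), chromosome 14 at 55 to 56 Mb (33) and chromosome 16 at 17 to 18 Mb (33). On chromosome 15 they were at 76 to 77 (45), 79 to 80 (49), 81 to 82 (34), 98 to 99 (32) and 102 to 103 Mb (37). Chromosome 17 held 15 to 16 (32), 24 to 25 (36), 25 to 26 (34), 34 to 35 (33), 35 to 36 (49), 46 to 47 (42), 47 to 48 (30) and 56 to 57 Mb (59), and chromosome 19 held 4 to 5 (43), 5 to 6 (60), 6 to 7 (37), 7 to 8 (37) and 46 to 47 Mb (30). Over all chromosomes, 32 of the 82 bins lay in the first 50% of their chromosome, 50 in the second 50% and 12 in the last 10%. Position was measured from the start of the chromosome up to the last bin with a peak. These parts are 50%, 50% and 10% of that length. As bins were counted from the first with a peak, the first part holds somewhat fewer than 50% of them. No test of position was made.

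Many of these bins adjoined each other. In all, 45 of the 82 (54.9%) lay in 19 runs of 2 or more adjacent bins, on 9 chromosomes, and 37 stood alone. The longest runs had 4 bins. Chromosome 7 held one from 28 to 32 Mb with 184 peaks (149 regions after merging), and chromosome 19 held the other, from 4 to 8 Mb with 177 peaks (139 regions). Runs of 3 bins were found on chromosome 8 from 72 to 75 Mb with 148 peaks (115 regions) and on chromosome 11 from 100 to 103 Mb with 120 (102) and from 115 to 118 Mb with 109 (93). The other 14 runs had 2 bins each, and the fullest of them, chromosome 10 from 79 to 81 Mb, held 156 peaks (121 regions).

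Some runs had sharp borders and others did not. The run on chromosome 7 from 28 to 32 Mb was preceded by a bin with 7 peaks and followed by one with 1. The run of 83 peaks on the same chromosome from 19 to 21 Mb lay between a bin with no peak and a bin with 1. On chromosome 8 the run from 72 to 75 Mb lay between bins with 7 and 8 peaks. In contrast, the run on chromosome 19 from 4 to 8 Mb had neighbours with 19 and 21 peaks, and that on chromosome 17 from 24 to 26 Mb had neighbours with 25 and 24. Over the 106 bins that bordered a peak-dense bin and were not peak-dense, the median was 14.5 peaks (middle 50% 7 to 22), against 4 over all bins. Among them, 65 (61.3%) held 11 to 29 peaks, a class that made up 18.99% of all bins, 39 held 1 to 10 and 2 held none.

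Within the bins, peaks were found in most parts of the megabase. Each bin was divided into 10 stretches of 100 kb. In 32 of the 82 bins every stretch held a peak, and the median bin had peaks in 9 of its 10. Of the 820 stretches in peak-dense bins, 98 (11.95%) were empty and 61 (7.44%) held 10 or more peaks. Empty stretches made up 31.9% in bins with 11 to 29 peaks and 72.3% in bins with 1 to 10. The number of peaks per bin largely sets these shares, in the peak-dense bins as well, so their order is no result. Whether peaks lay more evenly or more clustered in a bin than by random placement was not tested. The fullest bin, chromosome 7 from 52 to 53 Mb, had between 4 and 13 peaks in each stretch, and the fullest stretch held 14.0% of the bin's peaks, the lowest such share of the 82 bins. That share tends to be lower where a bin holds more peaks. The bin on chromosome 10 from 80 to 81 Mb had between 4 and 14 peaks in each stretch, and no gap in it was longer than 42.7 kb, the shortest such value of any peak-dense bin.

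Other full bins had a dense part and a nearly empty one. On chromosome 8 from 73 to 74 Mb, the first 4 stretches held 11, 12, 13 and 16 peaks, the seventh held none, and 245 kb from 73550706 to 73796093 were without a peak. On chromosome 3 from 96 to 97 Mb, the first 3 stretches held 15, 12 and 15 peaks, and 224 kb from 96709469 to 96933514 were empty. The longest gap between neighbouring peaks within any peak-dense bin was 411 kb, on chromosome 7 from 20518949 to 20929745. Sequence between a bin's edge and its nearest peak is not counted in these gaps. In the bin of chromosome 9 from 3 to 4 Mb, for example, the last peak ended at 3532522.

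In 3 bins more than 50% of the peaks lay in 1 stretch of 100 kb. At the start of chromosome 9 it was 36 of 40 peaks (90%), on chromosome 4 from 88 to 89 Mb 30 of 38 (78.9%), and on chromosome 17 from 15 to 16 Mb 18 of 32 (56.3%). The 36 peaks of chromosome 9 merged into 1 region from 2999995 to 3038338. The 30 peaks of chromosome 4 lay from 88402688 to 88452226 and merged into 15 regions. The 18 peaks of chromosome 17 included a pair of regions with 6 peaks each, from 15126728 to 15131243 and from 15158124 to 15162401. With the peaks of that stretch taken away, 4, 8 and 14 peaks remain in them.

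**Figure D3:**
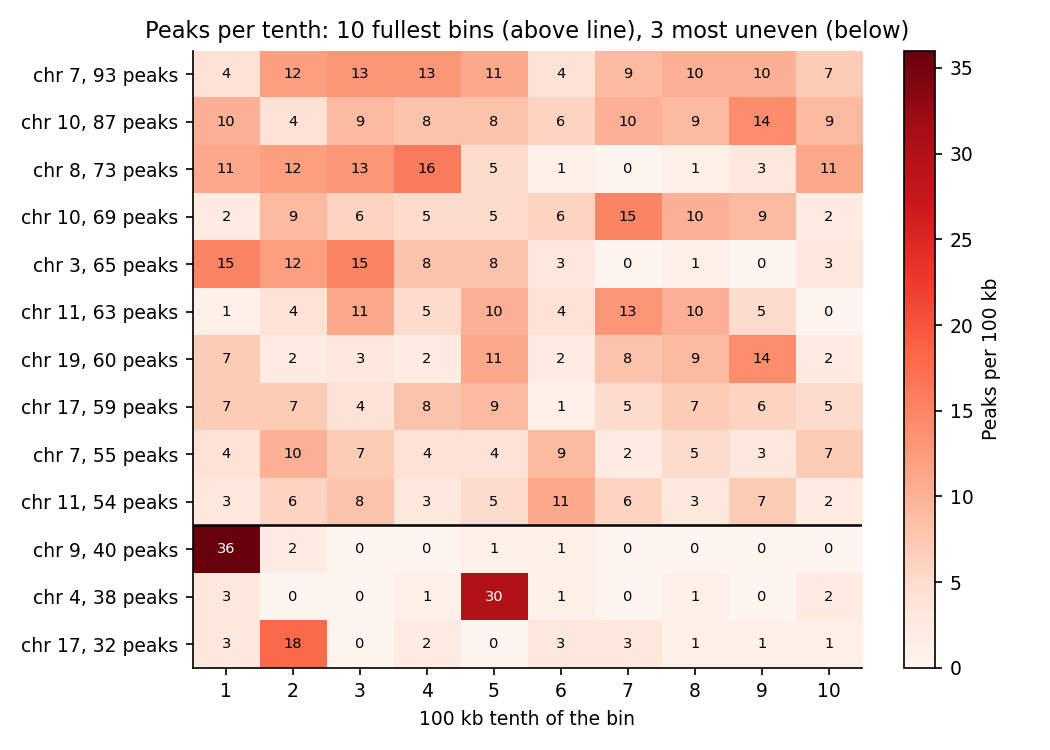
Peaks per 100 kb stretch, numbered 1 to 10 along the bin, in the 10 fullest peak-dense bins (above the line) and in the 3 bins with over 50% of their peaks in 1 stretch (below). The bin with 93 peaks has 4 to 13 in each stretch, whereas the bins with 40, 38 and 32 peaks have 36, 30 and 18 in a single stretch.

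Spacing was compared next, as the gap from the end of a peak to the start of the next peak in the same bin. The median gap was 10.4 kb in peak-dense bins (middle 50% 1.79 to 27.2 kb, 3367 pairs), 25.8 kb in bins with 11 to 29 peaks and 57.6 kb in bins with 1 to 10. A lower gap in fuller bins follows from the rule, so its order is no result. Divided by the mean spacing of its own bin (1 Mb over the number of peaks), the median gap was 0.446 in peak-dense bins, 0.465 in the middle class and 0.363 in bins with 1 to 10. Gaps that cross a bin's edge are left out, which shortens gaps most in sparse bins, so these values are not fully comparable between classes. The bin's median gap ran from 0.135 kb at the start of chromosome 9 to 21.7 kb on chromosome 4 from 129 to 130 Mb. Next to chromosome 9, the shortest medians were 1.75 kb on chromosome 4 from 88 to 89 Mb, 2.79 kb on chromosome 13 from 23 to 24 Mb and 3.37 kb on chromosome 6 from 47 to 48 Mb. The smallest single gap, 52 bp, was the same in all 3 classes.

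Shares of very short gaps and of gaps of intermediate length were set side by side, although both depend on the number of peaks per bin. Gaps of 1000 bp or less were 707 of 3367 in peak-dense bins (21.0%, 95% exact binomial interval 19.63 to 22.4%), against 16.9% over all autosomal bins. Their share was 16.0% (15.2 to 16.9%) with 11 to 29 peaks and 15.4% (14.4 to 16.4%) with 1 to 10. Short gaps are more likely where peaks are denser, so part of this order follows from the rule. Pairs across a bin's edge are left out: 3449 peaks gave 3367 pairs in peak-dense bins, but 6757 gave 5166 with 1 to 10. This removes pairs most in sparse bins, so how close their share lies to the others is no result. As a share of peaks, merging at 1000 bp took away 20.5% in peak-dense bins. It took away 15.1% with 11 to 29 peaks and 11.8% with 1 to 10. Gaps over 1000 bp and up to 10 kb made up 28.2% in peak-dense bins (26.6 to 29.7%), against 16.4% over all, 15.9% with 11 to 29 peaks and 9.62% (8.83 to 10.5%) with 1 to 10. A higher share of such gaps in fuller bins follows largely from the rule, so this order is no result either. Without the bin at the start of chromosome 9, an exclusion added after the data were examined, the shares in peak-dense bins were 20.2% and 28.5%. The intervals take pairs as independent and cover counting error only. No test was made between the classes, here or below, because peaks and bins of 1 library are not replicates.

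**Figure D4:**
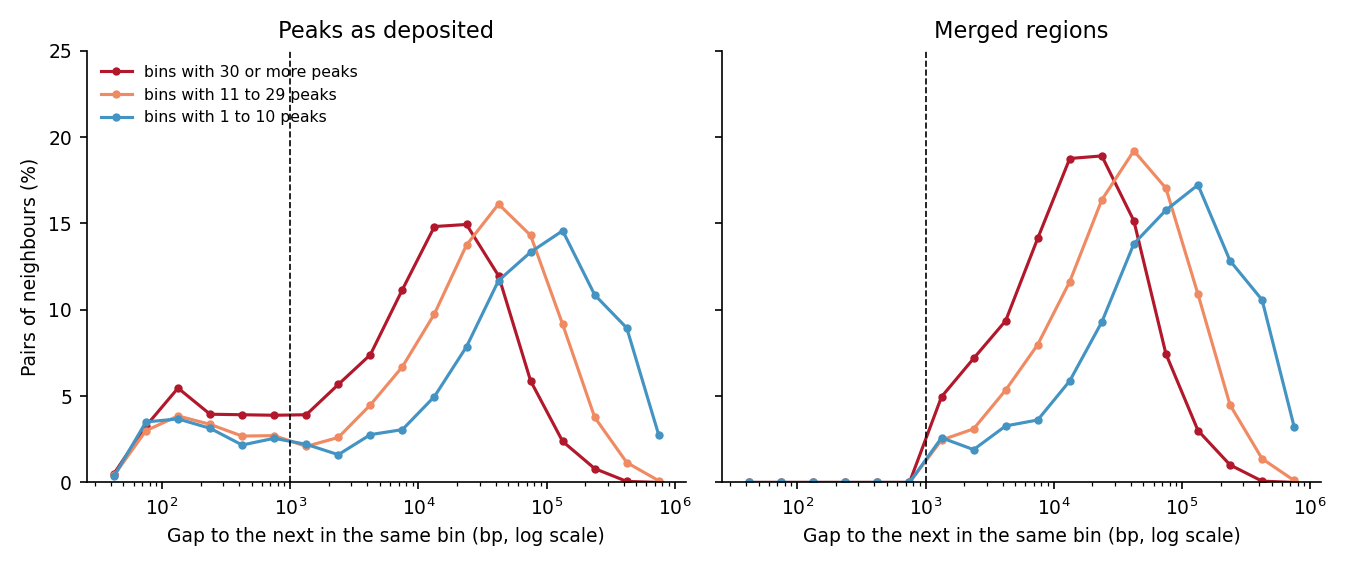
Share of neighbouring pairs in the same bin by the gap between them (log scale), for peaks as deposited (left) and merged regions (right), in bins with 30 or more, 11 to 29 and 1 to 10 peaks; the dashed line marks the merging gap of 1000 bp. Left of the line the curves lie closer together than to its right, where the curve of the peak-dense bins peaks at shorter gaps. Pairs across a bin's edge are left out, most of all in sparse bins, so how close the curves lie is no result. The number of peaks per bin largely shapes these curves.

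Merging took away 707 of the 3449 peaks in peak-dense bins, or 20.5% (19.2 to 21.9%), and left 2742 regions, 33.4 per Mb. Over all autosomal bins the share was 14.9%. It was 15.1% with 11 to 29 peaks and 11.8% (11.02 to 12.6%) with 1 to 10, which kept 3.75 regions per Mb. Denser peaks are more likely to lie within the merging gap, so part of this order follows from the rule. The same holds for the order inside the peak-dense class, which is ranked by the count that chose the bins. Inside the peak-dense class the share lost was 18.4% (16.5 to 20.4%) with 30 to 39 peaks, 20.5% with 40 to 49, 22.2% with 50 to 59 and 25.7% (21.9 to 29.7%) with 60 or more. Without the bin at the start of chromosome 9, a setting added after the data were examined, the share with 40 to 49 peaks was 17.98%, below that with 30 to 39, so the order of this pair of classes rests on that bin. Of the 2742 regions, 2190 were a single peak, 456 joined 2 peaks and 96 joined 3 or more. Apart from the 36 peaks of chromosome 9, the largest regions were those of 6 peaks on chromosome 17 and of 5 peaks on chromosome 8 from 87183943 to 87188327, chromosome 7 from 29593943 to 29596635 and chromosome 11 from 70466989 to 70469460. Merged regions were 15.5 kb apart in the median in peak-dense bins and 80.2 kb in those with 1 to 10 peaks.

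Width was not used by the rule. Peaks in peak-dense bins had a median width of 333 bp (middle 50% 243 to 480 bp), those in bins with 11 to 29 peaks 330 bp (236 to 474 bp) and those in bins with 1 to 10 peaks 308 bp (212 to 458 bp). The 95% intervals of these medians, from order statistics, were 327 to 341, 326 to 335 and 302 to 313 bp. The peak-dense bins thus lay 25 bp above the sparse bins and 3 bp above the middle class. Bin by bin, the median width exceeded 308 bp in 59 of the 82 peak-dense bins (72.0%), in 66.7% of the bins with 11 to 29 peaks and in 46.8% of those with 1 to 10, against 52.1% of all bins with a peak. As 308 bp is the median of the sparse class itself, a share near 50% there follows from that choice. Medians over fewer peaks also scatter more, so these shares depend on the number of peaks per bin. The median of the bin medians was 330.5, 330 and 299.5 bp in these classes (middle 50% 307.6 to 361.4, 295 to 377 and 236 to 381.75 bp). Within the class, width did not follow the count: the median was 334 bp with 30 to 39 peaks, 338 bp with 40 to 49, 332 bp with 50 to 59 and 327.5 bp with 60 or more, and over the 82 bins the count and the median width had an r of -0.05 and a rho of 0.05. Widths are those of the authors' peak calls. In peak-dense bins, peaks within 1000 bp of another had a median width of 309 bp (1259 peaks) and the 2190 others 353 bp. The same comparison gave 283 and 320 bp in bins with 1 to 10 peaks. As regions, the medians were 428 bp in peak-dense bins and 355 bp in those with 1 to 10.

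**Figure D5:**
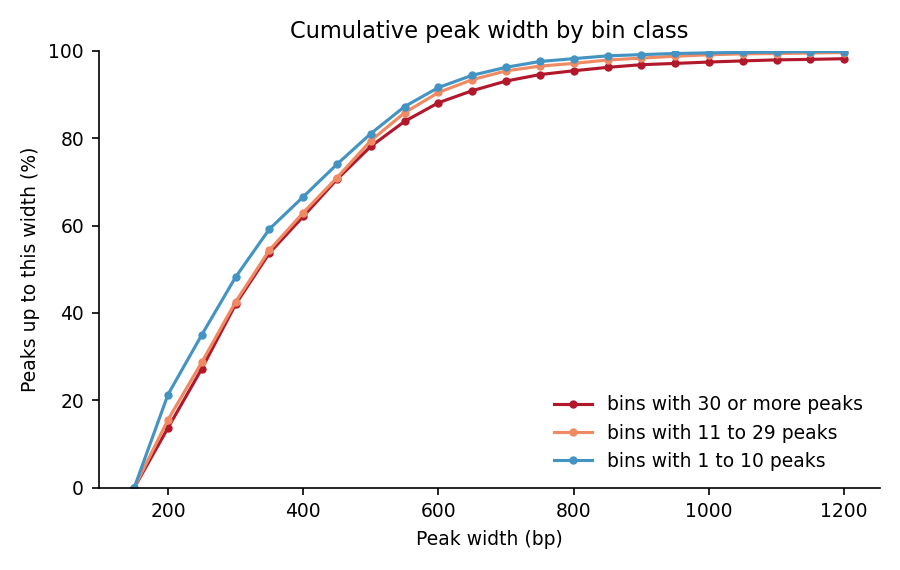
Share of peaks (%) up to each width (bp) in bins with 30 or more, 11 to 29 and 1 to 10 peaks. The curves of the upper classes nearly coincide, with medians of 333 and 330 bp, and that of the sparse bins lies to the left, with a median of 308 bp.

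The shares of the narrowest and of the widest peaks also differed between peak-dense and sparse bins. The narrowest width in the list, 157 bp, was that of 72 peaks in peak-dense bins (2.09%, exact binomial interval 1.64 to 2.62%), against 3.51% of all autosomal peaks and 5.31% (4.79 to 5.87%) in bins with 1 to 10 peaks. With 11 to 29 peaks it was 2.59% (2.25 to 2.97%), an interval that overlaps that of the peak-dense bins. Peaks wider than 1 kb numbered 89 in peak-dense bins (2.58%, 2.08 to 3.17%), against 1.08% of all autosomal peaks, 0.919% with 11 to 29 peaks and 0.488% (0.336 to 0.685%) with 1 to 10. Thus 45.9% of the 194 autosomal peaks of this width lay in peak-dense bins, which held 19.1% of all peaks. They came from few places: 55 of the 82 bins had none, and 3 bins held 47 of the 89. Without these 3 bins, left out after the data were examined, the share was 1.27% (0.917 to 1.71%) over 3305 peaks. That interval overlaps the one of bins with 11 to 29 peaks (0.720 to 1.16%).

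Those 3 bins were chromosome 13 from 23 to 24 Mb with 21 such peaks, chromosome 9 from 3 to 4 Mb with 15 and chromosome 3 from 96 to 97 Mb with 11. The first had the highest median width of all peak-dense bins, 1044 bp (middle 50% 305.5 to 1487 bp) over 39 peaks, and its widest peak reached 2407 bp. The bin of chromosome 9 had a median of 746 bp. That of chromosome 3 had a median of 343 bp, close to the other bins, although it held the widest peak of the list, 5223 bp from 96361463 to 96366685. The lowest median was 252 bp (183 to 397 bp), on chromosome 8 from 126 to 127 Mb, where 14 of the 37 peaks lay from 126065810 to 126117241 with a median of 204 bp. Apart from chromosomes 13 and 9, no median passed 471.5 bp, the value on chromosome 17 from 15 to 16 Mb.

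Together the peaks of the peak-dense bins covered 1.67% of the sequence in them, against 0.276% over all autosomal bins. Coverage was 0.637% in bins with 11 to 29 peaks and 0.150% in bins with 1 to 10 peaks. This order follows largely from the rule, which chose bins by their number of peaks. Against bins with 1 to 10 peaks, coverage was 11.2 times as high and the number of peaks per Mb 9.90 times. A bin's peaks covered between 9.73 kb (chromosome 11, 117 to 118 Mb) and 42.8 kb (chromosome 3, 96 to 97 Mb), with a median of 15.3 kb. The fullest bin covered 33.2 kb with its 93 peaks. The bins of chromosome 9 (34.6 kb) and chromosome 13 (38.1 kb) covered more with 40 and 39 peaks.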

How the data were processed

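The authors deposited 1 peak list with 4 columns (chromosome, start, end and name) and no score. Its positions on mm9, in bp, are the only measurements (per the file header and the submitters' processing notes, which name CASAVA 1.4, Bowtie2, MACS2 and mm9 without roles or settings). The calling threshold, duplicates and use of the input are not given in these sources. Per the labels' protocols, chromatin was fixed in 1% formaldehyde for 10 min, precipitated with 10 µg of antibody, and fragments of 200 to 300 bp were amplified over 16 cycles.

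Starts, counted from 0 in the list, are printed counted from 1. Bins ran from the first to the last with a peak on each chromosome. Merging joined peaks with gaps of 1000 bp or less, and regions were placed by their midpoint. Intervals are exact Poisson or Clopper-Pearson (95%). Binning and merging were tested on simulated data. The bins and comparisons were chosen with earlier results of these data known. Described in full were the 10 fullest bins, runs of 3 or more, bins with 30 and 29 peaks, and the extremes of merging, width and evenness. The planned gene counts and promoter shares needed an mm9 annotation and were not run. Tools were pandas 2.3.3, numpy 2.4.6 and scipy 1.17.1 under Python 3.11.15, with figures from matplotlib 3.10.9.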

Additional observations from a re-analysis of the deposited data

Results flagged for a closer look

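Peaks outside chromosomes 1 to 19 entered no comparison. On chromosome X 1 bin would have met the threshold of 30: from 7 to 8 Mb it held 38 of the 598 peaks of X. Among chromosome Y, chromosome M and the unplaced contigs, the fullest bin was on Un_random from 2 to 3 Mb and held 19 of its 32 peaks. Both are given because each exceeds 3, the most that finding 0 peaks would allow; this is a low bar that does not separate binding from background. No group held the 4 samples that a search for outlying samples needs.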

How the results depend on the processing

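The number of peak-dense bins moved with the threshold and the peaks counted: it was 82 as reported, 142 with 25 peaks or more, 38 with 40 or more, 53 after merging within 1000 bp, 29 after merging within 5000 bp and 13 among the wider 50% of peaks. With the threshold lowered to 15 for that 50%, it was 108, of which 73 were among the 82. It was 78 without the narrowest peaks and 82 with peaks placed by their start. It was 88, 93 and 87 with bins shifted by 500, 250 and 750 kb. Runs of 2 or more numbered 19, and 35, 6 and 12 with 25 or more, 40 or more and merged peaks. The share lost on merging was 8.72 percentage points higher than in bins with 1 to 10 peaks, and 6.45, 11.8 and 19.1 points higher with merging gaps of 500, 2000 and 5000 bp, and 5.39 points higher than in bins with 11 to 29. The difference in median width, 25 bp, was 73 bp for merged regions and 3 bp against bins with 11 to 29 peaks. The ratio of median gaps, 0.180, was 0.194 for merged regions, 0.402 against bins with 11 to 29 and 0.108 for pairs whose left peak lay in the bin. None of the alternatives run reversed a direction. No paired analysis was possible because each group has 1 library and only the list of the immunoprecipitation was used; for the same reason no replicate could be left out. Gene counts in the bins were not run. The missing depth limits all values: a bin with few peaks cannot be told from one with too few reads.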
